A study of Sus scrofa with 2 samples.

Results

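RNAs of 21 or 22 nt whose first base is T (U in the RNA) were taken from 2 small RNA libraries of pig oocytes, leaving out forms of miR-10b, miR-182, miR-148a, miR-205 and let-7. The rule kept 110678 of the 1166705 distinct sequences in the deposited tables, 40132 of 21 nt and 70546 of 22 nt. They are called members here. Of these, 71606 were seen in the control library and 65148 in the Dicer KD library. Both libraries came from oocytes matured in vitro for 42 h to metaphase II, the stage of ovulation. In the Dicer KD group, Dicer had been knocked down with siRNA in immature oocytes at the germinal vesicle stage. The labels do not say what the control oocytes received in its place, nor how many oocytes made up a library. There was 1 library per group, so no difference has a replicate check, and library and condition cannot be told apart. Dicer mRNA was not measured in these tables, so the knockdown itself was not checked.

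Dicer is the ribonuclease that cuts hairpins into miRNAs and long double-stranded RNA into siRNAs, both of which fall in the size range studied. piRNAs are made without Dicer, are bound by PIWI proteins in germ cells and mostly begin with U. Where PIWI proteins cut in reciprocal cycles, the partner RNA tends to carry A at the tenth base, opposite the first U of its partner. Oocytes of several mammals other than mice hold piRNAs shorter than those of the testis, so length and first base alone do not separate these classes. Mature tRNAs, whose fragments also reach this size, end in CCA, which is added after transcription.

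The most abundant members are shown inside their most abundant longer form, because the results turn on what differs between a member and the longer RNAs that share its 5′ end. Ranks are over both libraries together, lower case is the whole member, and capitals are the bases by which the longer form runs past its 3′ end.
Rank 1: tcacaaaacacagaggactctgACATTT
Rank 3: tctgattcaaccctgagcctggCA
Rank 4: ttactttccagtctgtggggctT
Rank 5: ttccatggtgctgattctctgGA
Rank 6: tgctttggtattaggattggtaTT
Rank 7: ttccatagtgactgtaccaactT
Rank 8: tttctgcagagctcagcagttCAG
Rank 9: tccacgaggatgcggatctgatC
Rank 10: ttgggcatgaggttactaggacA
Rank 11: tctgaatgcaggcctcatcccA
Rank 12: tgctttggtattaggattggtATT
Rank 12 is the 21-nt form of rank 6 and shares its 5′ end. The member is 21 nt long at ranks 5, 8, 11 and 12 and 22 nt long at the others shown. G stood at base 10 of ranks 5 and 7, and A at that base of the others shown.

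The members took a smaller share of the Dicer KD library than of the control library. They held 1046882 of 11836160 control reads, or 8.84% (95% exact binomial interval 8.83 to 8.86%). In the Dicer KD library they held 922079 of 11982925 reads, or 7.69% (7.68 to 7.71%). The ratio of the Dicer KD share to the control share, called the ratio from here on, was 0.870 (95% exact conditional interval 0.868 to 0.872). Intervals cover counting error only. Reads copied by PCR and not tagged with molecular identifiers are no independent molecules, and without replicates the spread between libraries of 1 group is unknown. The 21-nt members, with 252647 and 228025 reads, had a ratio of 0.891 (0.886 to 0.897). The 22-nt members, with 794235 and 694054 reads, had a ratio of 0.863 (0.860 to 0.866). Both lengths were thus lower in the Dicer KD library, and 22 nt was the main one, with 75.9% of member reads in the control and 75.3% in the Dicer KD library.

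The lower share was not shared by all RNAs of the same length. Reads of 21 and 22 nt with another first base were higher in the Dicer KD library, with 192850 and 218752 reads and a ratio of 1.12 (1.11 to 1.13). The miRNA forms left out by the rule, 189 sequences with 420079 and 430716 reads, had a ratio of 1.01 (1.01 to 1.02). Most of these reads were miR-10b, with 334798 and 346224. Forms of miR-182 (34168 and 30110) and miR-205 (7447 and 6416) were lower in the Dicer KD library. Forms of miR-148a (31126 and 32922) and let-7 (12540 and 15044) were higher. T was the first base of 87.0% of all 21- and 22-nt reads in the control library and of 84.7% in the Dicer KD library. Nor was a lower share limited to the members' lengths. T-first reads of 20 nt had a ratio of 0.945 (0.938 to 0.952), those of 23 nt one of 0.945 (0.943 to 0.947) and those of 24 nt one of 0.934 (0.932 to 0.936). T-first reads of 25 and 26 nt were level at 0.9995 (0.997 to 1.002), those of 27 and 28 nt stood at 1.07 (1.06 to 1.07) and those of 29 to 32 nt at 1.16 (1.15 to 1.16).

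The size of the difference rested in part on the most abundant sequences. On the log2 scale the ratio of all members was -0.20. Without rank 1 it was -0.14, and without the 2 most abundant members it was -0.11, close to the -0.09 of T-first reads of 23 and 24 nt. Without the 100 most abundant members it was -0.17, so the direction was the same in the less abundant members.

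Few members held most of the reads. Rank 1 alone took 11.6% of member reads in the control library (11.6 to 11.7%) and 7.65% in the Dicer KD library (7.59 to 7.70%). The 10 most abundant members of each library took 35.4% and 34.6%, the 100 most abundant 54.2% (54.1 to 54.3%) and 52.9% (52.8 to 53.0%), and the 1000 most abundant 74.9% and 74.0%. In the control library 62 members made up 50% of the reads and 9850 made up 90%. The corresponding numbers were 73 and 10462 in the Dicer KD library.

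The rest was a long tail of rare sequences. Over both libraries together, 14 members had at least 10000 reads, 192 at least 1000, 1524 at least 100 and 10259 at least 10. Those with at least 10 reads held 89.6% of all member reads. Sequences read a single time were 51.1% of the members seen in the control library and 48.2% of those seen in the Dicer KD library, but only 3.50% and 3.40% of the reads. The 26076 members seen in both libraries were 23.6% of all members and held 92.9% of control and 93.3% of Dicer KD member reads. A count of 0 in 1 library was therefore common among rare members and is not read as absence.

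Base 1 was T by the rule. After it, A at base 10 was the most frequent base at any position by reads, and T at the last base by distinct members. Among member reads, A stood at base 10 in 59.3% in the control library and 59.1% in the Dicer KD library. Abundant members set much of this value, since A at base 10 fell to 49.4% of control reads without the 2 most abundant members and to 41.0% without the 100 most abundant members. Counting each distinct member 1 time gave 34.9%, and each member with at least 10 reads 39.5%. A was still the most frequent base there, against 23.4% G, 21.04% T and 16.1% C, and its share at the neighbouring bases 9 and 11 was 24.5% and 24.3%.

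A at base 10 was more frequent among abundant members. It was present in 34.0% of members with 1 read, 35.0% of those with 2 to 9, 38.6% of those with 10 to 99, 43.8% of those with 100 or more but under 1000, and 48.4% of the 192 with at least 1000. Longer T-first RNAs had more of it and RNAs with another first base had less. Among distinct sequences with at least 10 reads, A at base 10 was found in 42.3% of those of 23 and 24 nt starting with T, in 44.6% of those of 27 and 28 nt starting with T, and in 29.3% of those of 21 and 22 nt not starting with T. Members whose 5′ end also occurred in a form of 25 to 32 nt had it in 41.1% of 8496 cases (40.01 to 42.11%), and members without such a form in 31.8% of 1763 (29.6 to 34.1%).

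Other positions also departed from even use, in part through single abundant sequences. Among members with at least 10 reads counted 1 time each, G was scarce at base 2, at 13.7%, beside 32.5% T, 30.01% C and 23.8% A. At base 5, A stood at 32.8% and C at 17.2%. The last base was T in 40.2% of these members, C in 23.1%, A in 20.4% and G in 16.3%. By control reads the last base was T in 34.2% and G in 26.6%, and both rank 1 and rank 3 end in G. A share of 47.1% G at base 15 of control reads was not seen over distinct members, where G stood at 26.9%. Rank 1 carries G at that base.

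Most member reads came from members that shared their 5′ end with a longer RNA. A longer form was any T-first sequence of up to 32 nt that begins with the whole member, outside the left-out miRNAs. In the control library 53.1% of the members seen had a longer form, and these members held 94.4% of member reads (94.3 to 94.4%). The Dicer KD library gave 52.2% and 93.7% (93.6 to 93.7%). Whether a longer form was seen depended on how often the member was read, from 37.2% of members with 1 read in both libraries together, through 61.2% and 95.2% of those with 2 to 9 and 10 to 99, to 99.1% of those with 100 or more but under 1000, and 99.5% of those with at least 1000.

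Long forms of the piRNA size range accounted for many of these matches. Forms of 25 to 32 nt alone covered 88.3% of control member reads. The longer forms outnumbered the member itself for members holding 73.8% of control and 73.3% of Dicer KD member reads. An example was a 5′ end at which almost all RNA was long. The 21-nt member ttctgtagcaacagttaaaac had 95 and 105 reads, while its 27-nt form, ttctgtagcaacagttaaaacGACCCT with the added bases in capitals, had 668874 and 683090. Another was the 21-nt member ttctgcttgagttgtagctgt, with 339 and 354 reads, whose 28-nt form ttctgcttgagttgtagctgtTATGCCT had 386191 and 389483. In both cases the long form was nearly level between the libraries.

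Grouping members by their first 21 nt gave 91973 different 5′ ends, of which 1432 had at least 100 member reads. At 724 of these (50.6%) the most abundant length was 21 or 22 nt, at 470 it was 23 or 24 nt, at 142 it was 25 or 26 nt and at 96 it was 27 to 32 nt. The lower share of members in the Dicer KD library was most marked at 5′ ends where the short RNA was itself the main product. There member reads were 411130 and 321219, a ratio of 0.772 (0.768 to 0.775). At 5′ ends that peaked at 23 or 24 nt the member reads were 368322 and 351652, a ratio of 0.943 (0.939 to 0.947), and at those that peaked at 25 or 26 nt and at 27 to 32 nt the ratios were 0.968 (0.955 to 0.981) and 0.958 (0.940 to 0.976). The first of these groups holds rank 1, and without its 5′ end the ratio there was 0.857 (0.853 to 0.862). Over single members with at least 100 reads the groups were closer, with median log2 ratios of -0.16, -0.21, -0.10 and -0.14 in the same order. A at base 10 was found in 36.6%, 47.0%, 50.7% and 52.1% of the 5′ ends of these groups.

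At the 5′ end of rank 1, the 22-nt member was lower in the Dicer KD library than any abundant longer form, and the 28-nt form was higher than in the control. The member was read 121862 times in the control library and 70507 times in the Dicer KD library, a ratio of 0.571 (0.566 to 0.577). Its 5′ end had a second peak at 27 and 28 nt. Between the peaks, the forms of 24, 25 and 26 nt had few reads and ratios of 0.792, 0.791 and 0.774. Counting every sequence with the same first 21 nt, the 27-nt forms had 66297 and 56304 reads and a ratio of 0.839 (0.829 to 0.848), whereas the 28-nt forms had 77048 and 84537 reads and a ratio of 1.08 (1.07 to 1.09). Of the lengths from 24 nt to 28 nt, only 28 nt was thus higher in the Dicer KD library.

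Ranks 3, 4, 8 and 10 were higher in the Dicer KD library. Rank 3 had 40349 and 50875 reads, a ratio of 1.25 (1.23 to 1.26), but its more abundant 24-nt forms had 63173 and 53883 and a ratio of 0.842 (0.833 to 0.852). Rank 3 thus had a higher ratio than its 24-nt forms, whereas rank 1 had a lower ratio than its own, which stood at 0.792. The 24-nt forms were lower in the Dicer KD library at both 5′ ends. Rank 4 had 36041 and 43643 reads, a ratio of 1.20 (1.18 to 1.21), and its 23-nt forms moved the same way, with 234618 and 311265 reads and a ratio of 1.31 (1.30 to 1.32). Rank 8 had 10344 and 15142 reads, a ratio of 1.45 (1.41 to 1.48), beside 24-nt forms with 13928 and 15047 reads and a ratio of 1.07 (1.04 to 1.09). Rank 10 had 7493 and 8549 reads, a ratio of 1.13 (1.09 to 1.16).

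Ranks 5, 9 and 11 were lower in the Dicer KD library, and ranks 6, 7 and 12 were level within counting error. Rank 5 had 26842 and 20752 reads, a ratio of 0.764 (0.750 to 0.778), and its 23-nt forms were lower too, with 13771 and 12185 reads and a ratio of 0.874 (0.853 to 0.896). Its 27-nt forms, with 11764 and 12997 reads, had a ratio of 1.09 (1.06 to 1.12). Rank 11 had 7682 and 4567 reads, a ratio of 0.587 (0.566 to 0.609). Ranks 6 and 12, which share a 5′ end, had ratios of 0.999 (0.978 to 1.02) and 0.974 (0.940 to 1.01), and rank 7 one of 1.01 (0.988 to 1.03), so their intervals include no difference. The far more abundant 23-nt forms of rank 7 were higher, at 1.15 (1.14 to 1.16), and its 24-nt forms lower, at 0.931 (0.907 to 0.955). Rank 9 had a ratio of 0.954 (0.9297 to 0.978). Its 23- and 24-nt forms were lower still, with ratios of 0.571 (0.531 to 0.614) and 0.617 (0.574 to 0.662). Its sparse 26-nt forms, with 122 and 194 reads, were higher.

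In the median over many 5′ ends, members had nearly the ratio of forms of 23 and 24 nt and a lower one than forms of 25 to 32 nt. At 893 5′ ends with at least 100 reads in members and in forms of 23 and 24 nt, the median difference in log2 ratio, short minus long, was 0.02, and the short form was lower at 429 (48.0%). By summed reads the members of this set stood lower, with 764046 and 668736 reads and a ratio of 0.865 (0.862 to 0.867), against 2787315 and 2671659 and a ratio of 0.947 (0.945 to 0.948) for the longer forms. At 693 5′ ends with at least 100 reads in members and in forms of 25 to 32 nt, the median difference was -0.17, and the short form was lower at 441 (63.6%). In the latter set the member reads were 710083 and 616757, a ratio of 0.858 (0.855 to 0.861), and the long forms 2914445 and 3111992, a ratio of 1.05 (1.05 to 1.06). Both sums of member reads include rank 1, with 121862 and 70507 reads, and they were not taken without it. By the median, the difference in ratio between members and forms of 25 to 32 nt thus also appeared within shared 5′ ends. At 48 of the 893 and 50 of the 693 the 2 forms differed from each other by at least 2-fold. Across these 5′ ends Pearson's r between the log2 ratios of short and long forms was 0.79 and 0.65. This describes these points only, since all of them share the same 2 libraries.

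T showed no clear excess at the base following a member's 3′ end in its longer forms, beside the bases beyond it. A read that begins with both a 21-nt and a 22-nt member was counted for each. By control reads of longer forms it was T in 29.4%, A in 25.3%, C in 24.7% and G in 20.7%, and it was T in 30.6% in the Dicer KD library. Counting each pair of member and next base 1 time, T was 25.8% in the control. Where longer forms ran at least 3 bases further, T was 24.5%, 22.4% and 23.7% of such pairs at the following 3 bases, and by reads 19.6%, 25.3% and 27.5%. The other bases differed between these 3 positions by control reads. A was 33.3%, 27.2% and 17.5%, G was 27.5%, 12.4% and 17.6%, and C was 19.6%, 35.1% and 37.5%.

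A small part of the 22-nt members ended in a base that their long forms do not have there. For 9696 5′ ends, forms of 25 to 32 nt with at least 10 reads held 1 base at position 22 in at least 90% of reads. Of the 651576 control reads of 22-nt members at these ends, 11659 (1.79%, 1.76 to 1.82%) ended in another base, and of 567529 Dicer KD reads 10074 (1.78%, 1.74 to 1.81%) did. The deviating base was A in 79.2% and 77.7% of these reads and T in 10.5% and 11.3%. Both libraries gave the same share within counting error and the same leading base. Without a genome, an added base and a base of another locus cannot be told apart here.

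A 2-fold rule stood in for a test on single members. Of the 1524 members whose reads over both libraries came to 100 or more, 51 (3.35%) were at least 2-fold higher in the Dicer KD library, 104 (6.82%) were at least 2-fold lower and 1369 were neither. Among all 13658 sequences of that depth, 5.71% were higher and 5.68% lower by the same rule. The members' share lower was near that background, and their share higher was below it. The median log2 ratio was -0.16 for the members and -0.06 for all sequences of that depth. T-first sequences of 23 and 24 nt gave 2.95% higher and 6.59% lower, close to the members, whereas T-first sequences of 27 and 28 nt gave 6.80% higher and 4.20% lower.

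Among the 192 members with 1000 or more reads, the rule called 4 higher and 15 lower in the Dicer KD library. The 2 with the largest ratio were forms of miR-423-5p, and capitals mark the seed, bases 2 to 8, by which a miRNA finds its targets.
miR-423-5p, 22 nt: tGAGGGGCagagagcgagactt
miR-92a: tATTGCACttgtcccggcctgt
miR-101: tACAGTACtgtgataactgacc
miR-143: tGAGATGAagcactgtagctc
miR-27b: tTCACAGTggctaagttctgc
miR-128: tCACAGTGaaccggtctcttt
miR-183: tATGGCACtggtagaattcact
miR-96: tTTGGCACtagcacatttttgc
These are the most abundant member forms of 8 of 15 miRNAs recognised among the members, so the members hold miRNAs other than those the rule left out. The 22-nt form of miR-423-5p had 488 and 2451 reads, a ratio of 4.96 (4.50 to 5.48), and its 21-nt form tgaggggcagagagcgagact had 494 and 2189, a ratio of 4.38 (3.97 to 4.84).

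The 15 miRNAs were cut from a longer list after their values had been seen, so their ratios are a description only. They had 175 member forms with 11967 control and 18866 Dicer KD reads, a ratio of 1.56 (1.52 to 1.59). Forms of miR-423-5p alone held 1042 and 4701 of these reads, so the sum does not describe each of the 15. Together the 15 made up 1.14% and 2.05% of member reads, so they had little weight in the total. Members outside the list may also be miRNAs, so the share of all miRNAs was not measured. Together, forms of miR-143 had 141 and 730 reads (ratio 5.11, 4.26 to 6.17) and forms of miR-27b had 224 and 677 (2.99, 2.56 to 3.49). miR-101 had 754 and 1117 reads (1.46, 1.33 to 1.61), miR-92a 3360 and 4594 (1.35, 1.29 to 1.41) and miR-128 2856 and 2977 (1.03, 0.978 to 1.08). The lower ones included miR-183, with 405 and 302 reads (0.737, 0.632 to 0.857), and miR-96, with 64 and 29 (0.448, 0.278 to 0.704), which are transcribed from a cluster shared with the left-out miR-182. A seed alone did not mark a miRNA. Of 191 members that began like miR-183, only 6 were forms of it, and of 104 that began like miR-128, 37 were.

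The other members with at least 1000 reads and the largest ratios were ttgggatagaacaggatggaag, with 345 and 754 reads and a ratio of 2.16 (1.90 to 2.46), tccctggtctagtggttaggat, with 330 and 694 and a ratio of 2.08 (1.82 to 2.38), and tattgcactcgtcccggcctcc, with 457 and 884 and a ratio of 1.91 (1.70 to 2.14). The last of these was below the 2-fold rule. Its 21-nt form tattgcactcgtcccggcctc passed the rule, with 96 and 511 reads and a ratio of 5.26 (4.22 to 6.61). So did tattgcactcgtcccggcctct, with 21 and 128 reads. At this 5′ end the 24- and 25-nt forms had ratios of 0.919 (0.720 to 1.17) and 0.651 (0.456 to 0.923). These sequences carry the seed of miR-92a but are outside the listed miRNAs, and whether they are a miRNA was not tested. For tccctggtctagtggttaggat, the 27-nt form tccctggtctagtggttaggatTCGGC was more abundant, with 819 and 1375 reads.

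At the other end, 1 abundant 5′ end was nearly absent from the Dicer KD library. The member tacagtggctgtggctcgaccc had 1489 control reads and 0 Dicer KD reads, which makes it lower by at least 502-fold when its 0 is set to 3 reads, the limit that a count of 0 allows in that library. Its 21-nt form tacagtggctgtggctcgacc had 1046 and 0 reads and was lower by at least 353-fold. All lengths of this 5′ end went together. Its 23-nt forms had 1778 control reads and 0 Dicer KD reads, and its 24-nt forms had 1041 and 1. The 5′ end peaked at 23 nt, so a form outside the members' lengths behaved as the members did.

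Another low member, tcgaacctgcagatccttaat, was lower than its longer forms. It had 2100 and 520 reads, a ratio of 0.245 (0.222 to 0.269). Its 23-nt form, tcgaacctgcagatccttaatCC with the added bases in capitals, had 2812 and 2760 reads. Counting all sequences with this 5′ end, the 24-nt forms had a ratio of 0.863 (0.800 to 0.9303), and the sparse forms of 26, 27 and 28 nt had ratios of 0.640 (0.509 to 0.803), 0.361 (0.247 to 0.518) and 0.506 (0.339 to 0.747). The 21-nt member thus had the lowest ratio of these forms, and the 23-nt form was nearly level.

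By summed reads, members that end in CCA were lower in the Dicer KD library, though not one by one. The forms below all begin with TCG and are 22 nt long, and capitals mark the CCA end.
CCA member 1: tcgtttcccggcccatgcaCCA
CCA member 2: tcgtttcccggccaatgcaCCA
CCA member 3: tcgtttcccggccaacgcaCCA
CCA member 4: tcgattccggctcgaaggaCCA
CCA member 5: tcgattcccggcccatgcaCCA
CCA member 6: tcgattcccgggcggcgcaCCA
CCA member 7: tcgaatcccacttctgacaCCA
CCA members 3 to 7 are the 5 most abundant members without any longer form, and CCA members 1 and 2 had only 4 and 1 longer reads in both libraries together. A CCA end is where a mature tRNA ends, but none was placed on a tRNA gene here.

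CCA member 1 had 5520 and 1238 reads, a ratio of 0.222 (0.208 to 0.236). CCA member 2 had 2906 and 671, a ratio of 0.228 (0.209 to 0.248), and CCA member 3 had 830 and 326, a ratio of 0.388 (0.340 to 0.442). These 3 share most of their bases. CCA member 4 was higher in the Dicer KD library, with 221 and 321 reads and a ratio of 1.43 (1.21 to 1.71). CCA member 7, with 174 and 183 reads, had a ratio of 1.04 (0.840 to 1.29), and CCA member 6, with 283 and 164, one of 0.572 (0.469 to 0.696).

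As a set, the 505 members that start with TCG and end in CCA had 18465 and 10071 reads, a ratio of 0.539 (0.526 to 0.552), and only 10.3% of them had a longer form. All 2518 members ending in CCA had 28944 and 19287 reads, a ratio of 0.658 (0.646 to 0.670), and 39.3% had a longer form. They were 2.76% of control member reads. Both sums include CCA members 1 and 2, which had 5520 and 1238 reads and 2906 and 671 reads. Over single CCA-ended members with at least 100 reads the median log2 ratio was -0.07, beside -0.16 for all members of that depth. The 2-fold rule could be applied to 49 of them and called 11 lower (22.4%) and 4 higher (8.16%), where 5.68% and 5.71% of all sequences of that depth were called, so the CCA-ended members did not all go one way.

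The ratio differed between classes of G and C content, without a steady trend. It was 0.816 below 30%, 0.966 at 30 to 40%, 0.827 at 40 to 50% and 0.909 at 50 to 60%. Members with 60 to 70% G or C had 42767 and 28001 reads and a ratio of 0.647 (0.637 to 0.657), and those with 70 to 80% had 3199 and 2373 and a ratio of 0.733 (0.695 to 0.773). The class of 60 to 70% includes CCA member 1 and tacagtggctgtggctcgaccc, both described above. The 130 members with at least 80% went the other way, with 162 and 929 reads and a ratio of 5.66 (4.79 to 6.74). One of them, tccccggccccccgtggcgccg, had 0 control and 267 Dicer KD reads, and was higher by at least 87.9-fold when its 0 is set to 3 reads. Others had 1 and 127, 1 and 121, and 0 and 121 reads, so few sequences held many of these reads. The part of base composition in the other results was not tested. The mean G and C content of member reads was 47.7% in the control and 47.6% in the Dicer KD library.

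Some members were near copies of a far more abundant RNA. A satellite was a member 1 base from a sequence of its own length with at least 100 times its reads. There were 8652 satellites, 7.82% of members, with 1.43% of control and 1.89% of Dicer KD member reads, and 458 of them lay beside a left-out miRNA. By the 2-fold rule, 7 of the 37 satellites deep enough to be counted were higher (18.9%), all of them beside miR-10b, and 5 were lower (13.5%), beside 5.71% and 5.68% of all sequences of that depth. Capitals mark the base that differs from the parent in each of these, and positions count from 1 at the 5′ end of the parent.
Satellite of miR-10b, A12T: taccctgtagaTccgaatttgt
Satellite of rank 1, A7G: tcacaaGacacagaggactctg
The A12T satellite had 137 and 533 reads, a ratio of 3.84, while miR-10b itself had 318321 and 323333. It is the mature form of miR-10a, so a satellite need not be an error of reading. The A7G satellite had 119 and 20 reads, a ratio of 0.166, against 0.571 for its parent.

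Partners on the opposite strand, which a Dicer-cut duplex would leave, were rare among the members. A partner was a sequence of the same length that pairs with the member and leaves 2 unpaired bases at each 3′ end. Of all members, 781 had one in the tables. At 22 nt these were 519 members, beside 401, 345, 205 and 114 at overhangs of 4, 3, 1 and 0 bases. At 21 nt they were 262, beside 293, 263, 166 and 61 at the same overhangs. No member with at least 100 reads had a partner with that many, the most reads of such a partner were 16, and 27 pairs had at least 10 reads on both sides. At 22 nt, members with a partner held 5.42% of control and 7.27% of Dicer KD reads of that length, but most of these were reads of rank 4, whose partner had 2 reads. Without rank 4 the shares were 0.881% and 0.984%. Duplexes of unlike lengths or with mismatches were not searched.

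Many abundant members also had a neighbour with a shifted 5′ end. Of the 1524 members with at least 100 reads, 380 (24.9%), holding 9.69% of the reads of these members, matched over their first 18 nt a more abundant sequence of 21 to 32 nt that began 1 to 5 bases upstream. The shift was 1 base for 124, 2 bases for 107, 3 bases for 62, 4 bases for 50 and 5 bases for 37.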

How the data were processed

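Each library's table lists distinct sequences with their raw read count, which the authors deposited without normalization. The submitters' processing notes name Bowtie2. Version, build and trimming are not given in the sources used here. Sequence lengths run from 18 to 44 nt. Shares were taken of all reads of a library, 11836160 and 11982925. Members and lists were chosen with earlier results of these data known. Members to name were the 12 most abundant, the 5 highest and the 5 lowest ratios where reads reached 1000, the 5 most abundant without a longer form and the 5 with the most longer reads. One of these is not reported here.

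No mature miRNA reference was used. The left-out stretches, nt 2 to 18, were read from the tables, as the most abundant sequence of 20 to 24 nt with the seed of each of 4 miRNAs, and as 7 stretches with the let-7 seed and at least 50 reads, a minimum set after seeing the counts. The 15 listed miRNAs were cut from a longer list after their values were seen. Satellites, CCA ends, G and C content, last bases, shifted ends and partners were also examined after seeing values. Intervals are exact, at 95%. Log2 ratios of single members had 0.5 reads added. Calls by the 2-fold rule and interval coverage were tested on simulated data. Scripts ran in Python 3.11.15 with scipy 1.17.1, pandas 2.3.3 and numpy 2.4.6.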

Additional observations from a re-analysis of the deposited data

How the results depend on the processing

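The log2 ratio of the members' share, -0.20, was negative under every alternative run: -0.24 relative to reads of 24 to 32 nt, -0.17 for 21 nt alone, -0.21 for 22 nt alone, -0.13 with the left-out miRNAs kept, -0.21 for members with at least 10 reads, and, chosen after seeing the data, -0.14 without rank 1, -0.11 without the 2 most abundant members, -0.17 without the 100 most abundant, -0.21 without satellites and -0.21 without the 15 listed miRNAs. The 155 members past 2-fold became 374 at a minimum of 50 reads, 3237 at 10, 35 at 500, 450 at 1.5-fold and 42 at 21 nt alone. With median-of-ratios size factors in place of total reads they were 144. Of these, 58 were higher and 86 lower, beside 51 and 104 in the main setting, so the excess of lower members was smaller. The background over all sequences was counted only for the 2-fold rule at 100 or more reads, so the other counts have none beside them. Fewer reads per sequence widen single ratios, so depth limits the count at low minimums. The share held by the 100 most abundant, 54.2%, was 58.4% over 5′ ends, 55.8% without sequences of 1 read, 54.5% without the listed miRNAs and 54.9% without satellites. A at base 10, 59.3% of control reads, was 34.9% over distinct members, 39.5% over those with at least 10 reads, 38.6% of these without satellites, 41.0% without the 100 most abundant, 49.4% without the 2 most abundant members and 59.6% without the listed miRNAs. T after the 3′ end, 29.4%, was 25.8% over pairs, 29.5% in forms of at least 10 reads and 21.4% in forms of 25 to 32 nt. Member reads with a longer form, 94.4%, were 84.3% with forms of at least 10 reads, 88.3% with forms of 25 to 32 nt and 95.4% over the first 18 nt. The median log2 ratio of the 1511 members with a longer form minus that of the 13 without was -0.24, and it reversed to 1.18 at a minimum of 500 reads, where only 3 members had none. Alternatives that leave out every miRNA of a reference table were not run. No paired analysis was possible because there was 1 library per group.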
